A study of Homo sapiens with 12 samples.

Results

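The 10 genes examined belong to the cytosolic chaperone system: the transcription factor *HSF1*, the HSP90 genes *HSP90AA1* and *HSP90AB1*, the HSP110 gene *HSPH1*, the small heat shock protein genes *HSPB1* and *HSPB8*, the co-chaperone gene *BAG3*, and the HSP90 co-chaperone genes *AHSA1*, *STIP1* and *CHORDC1*. They were chosen by symbol, and all 10 of them were found among 43236 gene symbols and were among the 15979 genes with enough counts to be tested. The cells were MNNG/HOS, labelled HOS-MNNG, an osteosarcoma line transformed with a chemical mutagen. They received the solvent DMSO or 300 nM NXP800, a compound made to block HSF1 signalling, for 6 h or 24 h, giving 4 groups of 3 poly(A) RNA libraries all from 1 cell line, with no genetic modification named in the labels. Each treated group was compared with the DMSO group of its own time point.

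HSF1 is held inactive in unstressed cells. On proteotoxic stress it forms trimers, binds heat shock elements (inverted repeats of the unit GAA) and switches on chaperone genes. HSP90 is a dimeric ATP-driven chaperone that matures kinases, steroid receptors and other clients and holds HSF1 back, and its co-chaperones deliver clients or set its ATPase rate. HSP110 proteins exchange nucleotide on HSP70, small heat shock proteins hold unfolding proteins without ATP, and BAG3 links HSP70 and HSPB8 to selective autophagy. Tumour cells often keep much of this system high without heat.

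The short sequences below show where the best-matched heat shock elements lie before the start sites of the members. They are given because NXP800 was first developed against the pathway that reads them. From its RNA-seq of MNNG/HOS cells, the study reports that a majority of the transcripts in its heat response heatmap were lower with NXP800. The study also reports that NXP800 did not affect HSF1 or HSP70 protein at the later time. It also reports that NXP800 still activated the kinase GCN2 when HSF1 was knocked down, and that this knockdown did not change its toxicity. Whether HSF1 accounts for the RNA decreases below was not tested. RefSeq promoters of GRCh38.p14 (from 250 bases before to 50 after each start site) were matched for 9 of the 10 genes, as 14 promoters. None was matched for *HSF1*. The letters searched were GAANNTTC and TTCNNGAA, each of which reads the same on both strands, and then 3 alternating units with the same spacing, whose matches contain matches of the shorter motifs. Capitals mark the GAA and TTC units that belong to a match in each window, printed 5′ to 3′ on the strand of the gene.

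HSP90AB1, upper: aggTTCtgGAAgaTTCatg

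HSP90AB1, lower: ttgTTCtgGAAgcTTCtgg

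HSP90AA1: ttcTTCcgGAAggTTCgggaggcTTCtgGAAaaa

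CHORDC1: ccgGAAaaTTCgcGAAggTTCctGAAacg

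HSPB1: agaGAAggTTCcag

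HSPB8: tccGAAtaTTCctg

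The *HSP90AB1* windows lie at chr6:44247775-44247793 and chr6:44247828-44247846 on the plus strand, with capitals from -165 to -153 and from -112 to -100 relative to the third RefSeq start site of the gene. The *HSP90AA1* window lies at chr14:102087102-102087135 on the minus strand, from -88 to -61 of the second RefSeq start site. Both genes' windows are intronic in GENCODE because longer transcripts begin upstream. The *CHORDC1* window, chr11:90223084-90223112 on the minus strand, holds 5 units in a row between -60 and -38 and lies outside the annotated gene. *HSPB1* (chr7:76302488-76302501, plus strand, upstream of the gene) and *HSPB8* (chr12:119178840-119178853, plus strand, intronic in GENCODE) had only the shorter motif.

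The shorter motif was present in 6 of the 14 promoters, each of a different gene, and in 13.5% of 35116 RefSeq promoters. A run of 3 units was present in 3 of the 14, those of *HSP90AA1*, *HSP90AB1* and *CHORDC1*, and in 0.49% of all promoters. The sixth gene with the shorter motif, *STIP1*, had it only downstream of a start site, at +14. *BAG3*, *HSPH1* and *AHSA1* had no match in these windows. The members were chosen by symbol as chaperone system genes, so a higher share than over all promoters is no independent result. A match to these letters is a description of the sequence, and its use in these cells was not measured.

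Per kilobase of canonical transcript, the members spanned a wide range of RNA levels. Levels here are CPM, gene counts scaled to library size after TMM normalization, and the order uses CPM per kilobase. In the DMSO libraries of 6 h, *HSP90AB1* was highest at 1375 ± 37.9 CPM per kb (SD, n = 3), followed by *HSP90AA1* at 1148 ± 55.4. Next came *AHSA1* at 238 ± 12.3 and *STIP1* at 153 ± 9.17 CPM per kb. *HSPB1* stood at 74.9 ± 11.7, and *BAG3* at 59.5 ± 1.22 and *HSPH1* at 59.4 ± 4.15 were within each other's range. *HSF1* had 50.04 ± 1.22 CPM per kb and *CHORDC1* 28.1 ± 2.36. *HSPB8* was far below all others at 0.570 ± 0.00998 CPM per kb.

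The first 4 places were the same in all 4 groups, and the last 2 were always *CHORDC1* and *HSPB8*. The middle of the order was not the same, as *BAG3* went from the sixth place in DMSO to the eighth with NXP800 at 6 h, where its range overlapped that of *CHORDC1*. *HSF1* took the fifth place with NXP800 at 24 h, overlapping *HSPB1*. Other neighbours that overlapped were *HSPB1* and *HSF1* with NXP800 at 6 h, and *BAG3*, *HSF1* and *HSPH1* in succession in DMSO at 24 h.

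**Figure D1:**
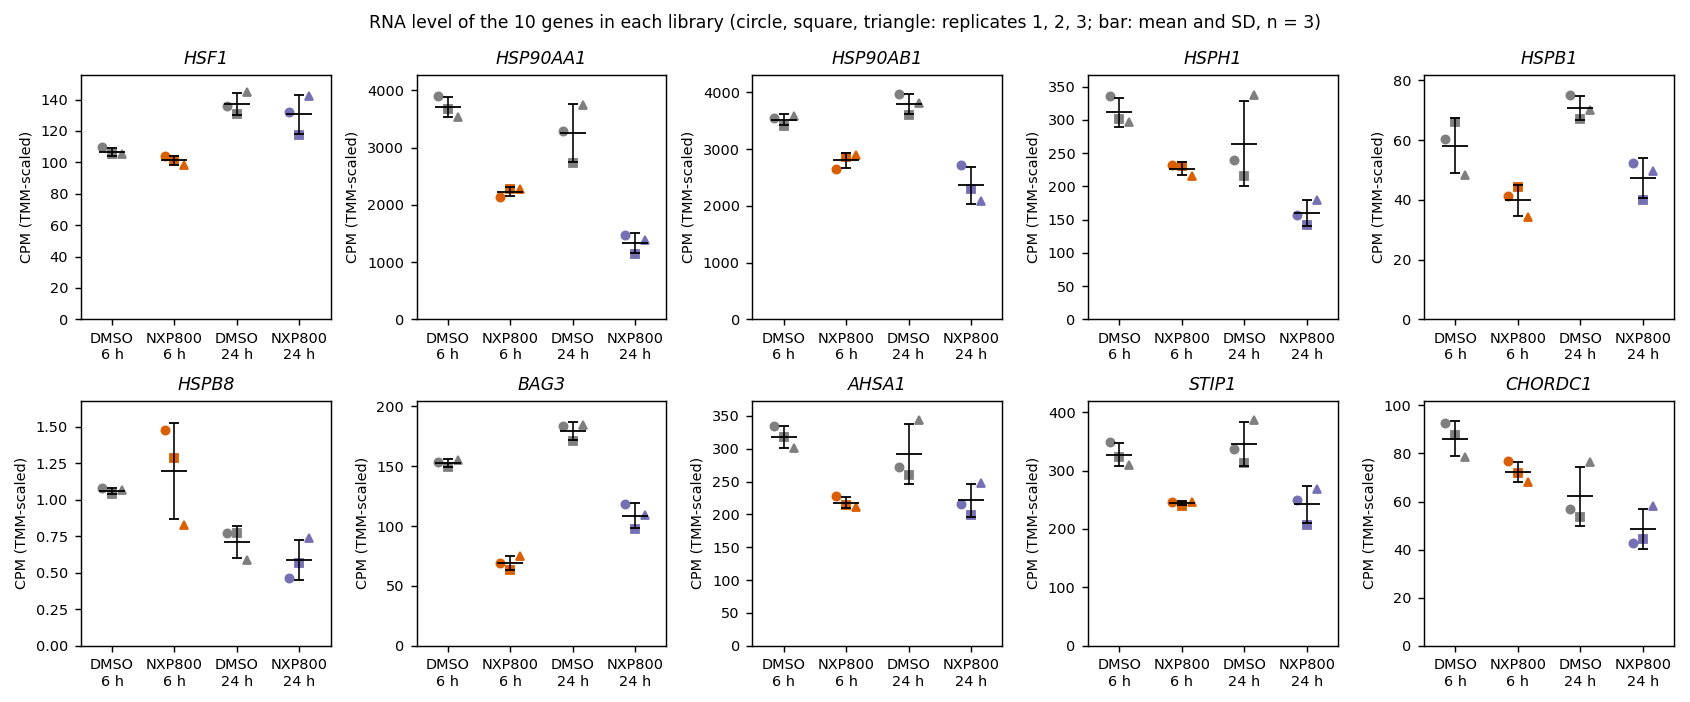
RNA level of each of the 10 genes, in CPM after TMM scaling on axes that start at 0, in the 3 libraries of each group. Circles, squares and triangles are replicates 1, 2 and 3, and bars give the mean and SD. With NXP800 the levels of HSP90AA1, HSP90AB1, HSPH1, HSPB1, BAG3, AHSA1 and STIP1 lie below every DMSO library of the same time, while HSPB8 overlaps at both times and HSF1 and CHORDC1 overlap at 24 h.

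At 6 h, 7 of the 10 members fell with NXP800 and 0 rose, and at 24 h 8 fell and 0 rose, by edgeR's quasi-likelihood test at a Benjamini-Hochberg adjusted p below 0.05. Over all tested genes 27.8% fell and 25% rose at 6 h, which is 52.8% called in all. At 24 h 28.6% fell and 27.5% rose, 56% in all. With the replicate number as a block, 8 members fell at each time, and 9953 and 10411 of the 15979 genes were called, against 8435 and 8953 without it. The median log2 fold change of the members was -0.44 at 6 h and -0.55 at 24 h, against -0.05 and -0.00334 over all tested genes. The treated libraries lay wholly below the DMSO libraries for 9 members at 6 h, where 32.7% of all tested genes did so, and for 7 members at 24 h, against 30.1%. In bulk RNA, fewer cells expressing a gene and less RNA per cell cannot be told apart. The methods describe results in general as means of independent experiments, but neither they nor the labels say how the replicate libraries were grown. The p-values of the main fit rest on the spread between libraries within the 4 groups, taken in 1 model without the replicate block.

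**Figure D2:**
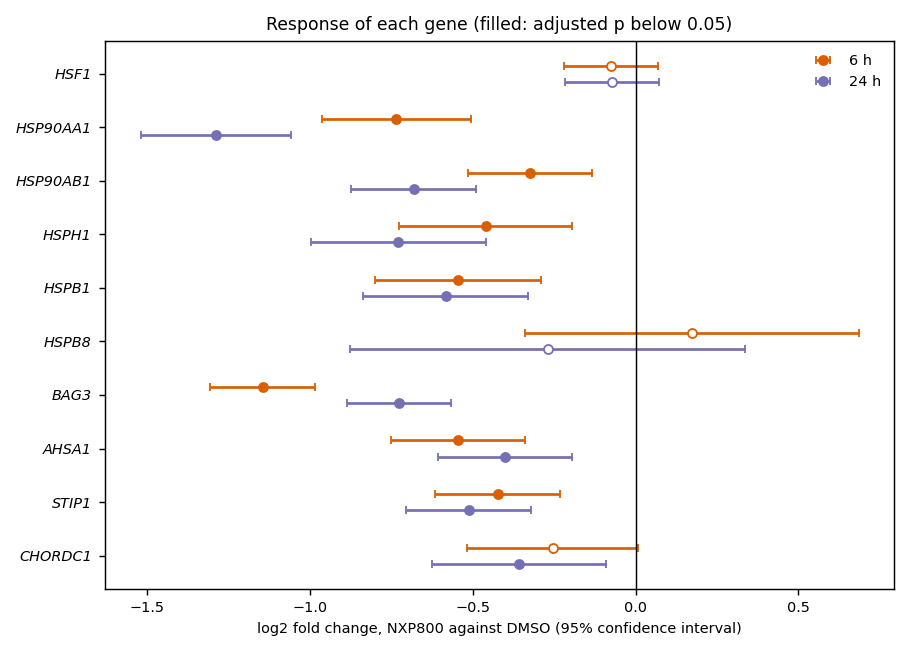
Log2 fold change of each gene, NXP800 against DMSO, at 6 h (orange) and 24 h (purple), with the 95% confidence interval of edgeR's fit. Filled points passed an adjusted p of 0.05; the HSF1 and HSPB8 intervals include 0 at both times, and the lowest points are BAG3 at 6 h (-1.15) and HSP90AA1 at 24 h (-1.29).

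*HSF1* (chr8:144291604-144314720, plus strand), the regulator itself, was not called at either time. Its level in the DMSO libraries of 6 h was 110, 105 and 105 CPM, and with NXP800 it was 104, 101 and 98.5 CPM. The treated libraries were all lower, by little. At 24 h the DMSO libraries had 136, 131 and 145 CPM and the treated ones 132, 118 and 142 CPM, which overlapped. The log2 fold change was -0.08 ± 0.07 (SE) at 6 h (95% confidence interval -0.22 to 0.07, adjusted p = 0.371, edgeR) and -0.07 ± 0.07 at 24 h (-0.22 to 0.07, adjusted p = 0.391). Its sign turned to +0.09 and +0.06 for the 2 times (adjusted p = 0.0513 and 0.166) when GC and length offsets were added to the replicate block. The canonical transcript of *HSF1* has a GC content of 63.9%. Scaling by library size only also turned the 24 h value, to +0.02.

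*HSP90AA1* (chr14:102080742-102139749, minus strand) encodes the stress-inducible HSP90α and showed the largest decrease of the members at 24 h. In DMSO at 6 h it had 3895, 3677 and 3540 CPM, and with NXP800 2134, 2272 and 2270 CPM. In DMSO at 24 h it had 3289, 2736 and 3737 CPM, and with NXP800 1465, 1141 and 1387 CPM. The groups were well apart at both times. The level changed by -39.9% at 6 h (log2 fold change -0.73 ± 0.11, adjusted p = 2.94e-05, edgeR) and by -59.1% at 24 h (-1.29 ± 0.11, adjusted p = 5.98e-08). At 24 h only 4.72% of the tested genes had a lower log2 fold change.

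*HSP90AB1* (chr6:44246194-44253883, plus strand) encodes HSP90β, the constitutive form. It had 3546, 3404 and 3589 CPM in DMSO at 6 h and 2654, 2860 and 2899 CPM with NXP800. At 24 h the DMSO libraries had 3964, 3607 and 3808 CPM and the treated ones 2720, 2294 and 2079 CPM. All treated libraries were again lower than all control libraries. The change was -20.2% at 6 h (log2 fold change -0.33 ± 0.09, adjusted p = 0.00607, edgeR) and -37.7% at 24 h (-0.68 ± 0.09, adjusted p = 8.39e-06).

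The fitted decrease of *HSP90AA1* was larger than that of *HSP90AB1* at each time. The ratio of *HSP90AA1* to *HSP90AB1*, in counts per kilobase, was 0.869, 0.855 and 0.781 in DMSO at 6 h and 0.637, 0.629 and 0.620 with NXP800. At 24 h it was 0.657, 0.600 and 0.777 in DMSO and 0.426, 0.394 and 0.528 with NXP800. The groups did not overlap at either time, and the exact two-sided permutation test gave p = 0.1 at each, the smallest value that 3 against 3 libraries allow. Per kilobase *HSP90AB1* stayed the more abundant paralog in every library. In CPM, *HSP90AA1* was higher in DMSO at 6 h in replicate 1 (3895 against 3546) and replicate 2 (3677 against 3404).

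The pair took 0.745 ± 0.0187% of all gene counts in DMSO at 6 h (SD, n = 3) and 0.525 ± 0.0246% with NXP800. At 24 h the share was 0.657 ± 0.0501% and 0.366 ± 0.0308%. Set against the 3 HSP90 co-chaperones *AHSA1*, *STIP1* and *CHORDC1*, summed per kilobase, the HSP90 pair stood at a ratio of 6.04 ± 0.250 in DMSO and 5.96 ± 0.410 with NXP800 at 6 h, with overlap (exact permutation p = 0.8, difference -0.0801). At 24 h the ratio was 6.27 ± 0.534 in DMSO and 4.59 ± 0.733 with NXP800, without overlap (exact permutation p = 0.1). The other 2 HSP90 genes, which are not in the cytosol, also fell: *HSP90B1*, which encodes the endoplasmic reticulum form GRP94, with log2 fold changes of -0.26 and -0.28 for the 2 times (adjusted p = 0.0119 and 0.00693, edgeR), and mitochondrial *TRAP1*, with -0.26 and -0.66 (adjusted p = 0.00288 and 2.78e-07).

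**Figure D3:**
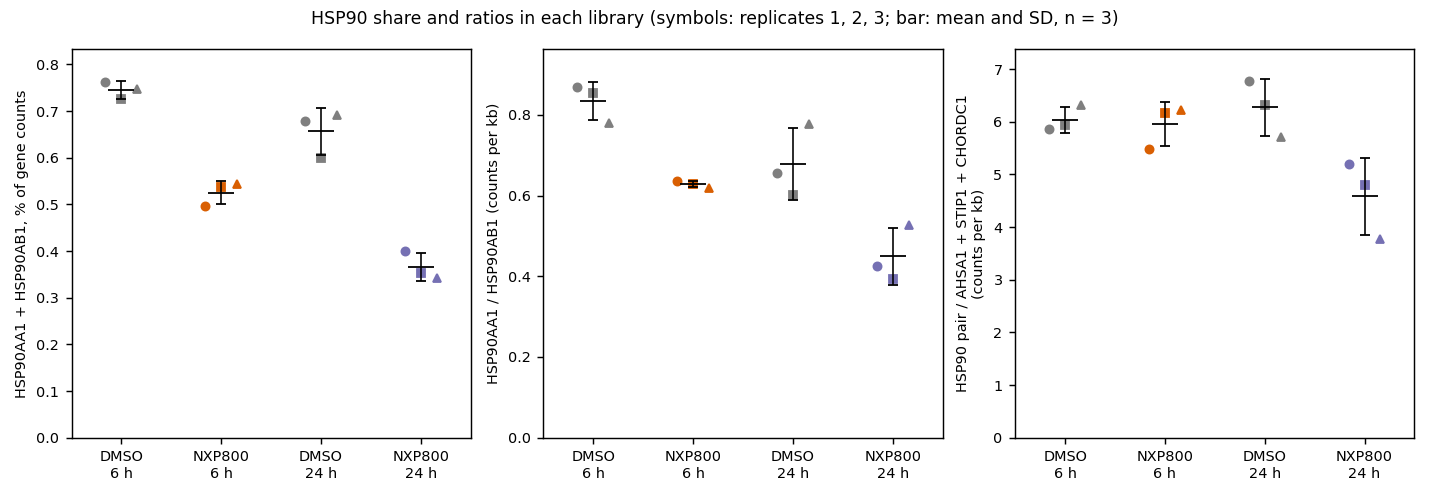
Share of all gene counts taken by HSP90AA1 and HSP90AB1 together (left, percent), the ratio of HSP90AA1 to HSP90AB1 per kilobase (middle), and the ratio of the HSP90 pair to AHSA1, STIP1 and CHORDC1 per kilobase (right), in each library with mean and SD (n = 3), on axes from 0. The first 2 measures are lower with NXP800 at both times without overlap, while the third separates at 24 h only.

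*HSPH1* (chr13:31134973-31162388, minus strand), the heat-inducible HSP110, fell at both times. Its levels at 6 h were 336, 301 and 296 CPM in DMSO and 232, 231 and 215 CPM with NXP800. At 24 h they were 240, 216 and 337 CPM in DMSO and 157, 142 and 180 CPM with NXP800. Replicate 3 was the highest of its group at 24 h in both conditions. The change was -27.3% at 6 h (log2 fold change -0.46 ± 0.13, adjusted p = 0.00565, edgeR) and -39.7% at 24 h (-0.73 ± 0.13, adjusted p = 0.000129), and within replicate numbers the treated level at 24 h was 0.656, 0.654 and 0.534 of the control level. Of its relatives, *HSPA4* was not called (-0.11, then -0.10, adjusted p = 0.224 and 0.239). *HSPA4L* fell at 6 h (log2 fold change -0.25, adjusted p = 0.0435), and its 24 h value was -0.22 (adjusted p = 0.0813). *HYOU1*, the HSP110 of the endoplasmic reticulum, rose by 0.47 at 24 h (adjusted p = 3.13e-05) and was at 0.09 at 6 h (adjusted p = 0.330).

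Of the small heat shock protein genes, *HSPB1* (chr7:76302673-76304292, plus strand), which encodes HSP27, fell, and *HSPB8*, whose counts were low, was not called. *HSPB1* had 60.2, 66.1 and 48.2 CPM in DMSO at 6 h and 41.3, 44.2 and 34.1 CPM with NXP800. At 24 h it had 75.2, 67.1 and 69.9 CPM in DMSO and 52.4, 39.8 and 49.5 CPM with NXP800. No treated library reached the lowest control library of its time. The change was -31.5% at 6 h (log2 fold change -0.54 ± 0.12, adjusted p = 0.00122, edgeR) and -33.2% at 24 h (-0.58 ± 0.12, adjusted p = 0.000588). With the replicate block and GC and length offsets the 6 h value was -0.36 (adjusted p = 2.68e-06), and the canonical transcript has a GC content of 65.3%.

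*HSPB8* (chr12:119178931-119194746, plus strand) encodes the small heat shock protein that BAG3 binds. It had 34, 33 and 35 counts in DMSO at 6 h and 48, 42 and 27 with NXP800, then 23, 23 and 17 counts in DMSO at 24 h and 14, 18 and 23 with NXP800. The groups overlapped at both times. The log2 fold change was 0.17 ± 0.24 at 6 h (95% confidence interval -0.34 to 0.68, adjusted p = 0.571, edgeR) and -0.27 ± 0.29 at 24 h (-0.88 to 0.34, adjusted p = 0.442), so that a change within these intervals was not detectable at this depth. *HSPB6* was the only 1 of 7 other small heat shock protein genes with enough counts to be tested. It fell at 6 h (log2 fold change -0.57, adjusted p = 0.00968) and was at -0.40 at 24 h (adjusted p = 0.0580). *CRYAA*, *HSPB2* and *HSPB3* had 0 counts in every library, and *CRYAB*, which encodes αB-crystallin, had at most 1.

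*BAG3* (chr10:119651380-119677819, plus strand) was the member with the largest decrease at 6 h. It had 153, 149 and 155 CPM in DMSO at 6 h and 68.7, 63.0 and 75.0 CPM with NXP800. At 24 h it had 183, 171 and 184 CPM in DMSO and 118, 97.8 and 109 CPM with NXP800. The groups lay far apart at both times, and in DMSO as with NXP800 the libraries of 24 h were all higher than those of 6 h. The level changed by -54.8% at 6 h (log2 fold change -1.15 ± 0.08, adjusted p = 6.19e-09, edgeR) and by -39.6% at 24 h (-0.73 ± 0.07, adjusted p = 5.86e-07). Only 3.88% of the tested genes had a lower log2 fold change at 6 h.

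The other BAG genes showed smaller values than *BAG3* and no common direction. *BAG2*, which inhibits the ubiquitin ligase CHIP, fell at 6 h (log2 fold change -0.20, adjusted p = 0.0473, edgeR) and was at 0.10 at 24 h (adjusted p = 0.297). *BAG1* was at -0.14 at 6 h (adjusted p = 0.132) and fell by 0.28 at 24 h (adjusted p = 0.00511). *BAG5* was at 0.15 (adjusted p = 0.0640) and then rose by 0.21 (adjusted p = 0.0137). *BAG4* was at -0.02 at both times, and *BAG6* was at 0.12 and -0.03, none of them called. Without TMM scaling 3 of the 5 were called at 6 h, as they were with the replicate block.

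Of 9 tested genes that work with BAG3 and HSPB8, 4 rose and 3 fell at 6 h, and 4 rose and 1 fell at 24 h, where over all tested genes 52.8% and 56% were called in either direction. *HSPA8*, which encodes the HSP70 that BAG3 binds, fell, with log2 fold changes of -2.44 and then -1.22 (adjusted p = 3.68e-10 and 3.09e-07, edgeR), and *SYNPO*, an actin-binding partner, fell by 0.73 at 6 h (adjusted p = 0.000179). *FLNC*, the filamin that BAG3 and HSPB8 clear in muscle, rose by 2.22 and 2.82 (adjusted p = 1.59e-09 and 1e-10). *MAP1LC3B*, the autophagosome protein LC3B, rose by 1.98 and 1.45 (adjusted p = 5.55e-10 and 9.32e-09). The median of this list was 0.07 at 6 h and 0.06 at 24 h.

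Among the HSP90 co-chaperones, *AHSA1* (chr14:77457867-77469472, plus strand), whose product AHA1 stimulates the ATPase of HSP90, had 334, 317 and 301 CPM in DMSO at 6 h and 228, 215 and 211 CPM with NXP800. At 24 h it had 272, 260 and 344 CPM in DMSO and 216, 200 and 248 CPM with NXP800. The groups did not overlap at either time, by a small margin at 24 h. It changed by -31.4% at 6 h (log2 fold change -0.54 ± 0.10, adjusted p = 0.000191, edgeR) and by -24.3% at 24 h (-0.40 ± 0.10, adjusted p = 0.00217). Without replicate 3 of DMSO at 24 h, the highest library, the 24 h value was -0.27 (adjusted p = 0.0161).

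*STIP1* (chr11:64185272-64204543, plus strand) encodes HOP, the adaptor that joins HSP70 to HSP90. Its levels at 6 h were 348, 323 and 310 CPM in DMSO and 245, 240 and 246 CPM with NXP800. At 24 h they were 337, 312 and 387 CPM in DMSO and 250, 207 and 268 CPM with NXP800. Every treated library was below every control library of its time. The change was -25.4% at 6 h (log2 fold change -0.42 ± 0.09, adjusted p = 0.000967, edgeR) and -29.9% at 24 h (-0.51 ± 0.09, adjusted p = 0.000157). Of the exonic length of *STIP1*, 9.67% is shared with a GENCODE gene on the opposite strand, the most among the members.

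*CHORDC1* (chr11:90200429-90223049, minus strand), which encodes the HSP90-binding protein CHP-1, showed the smallest decrease among the members called at 24 h. It had 92.6, 87.7 and 78.3 CPM in DMSO at 6 h and 76.8, 71.7 and 68.3 CPM with NXP800, without overlap. At 24 h it had 56.7, 53.4 and 76.3 CPM in DMSO and 42.8, 44.6 and 58.0 CPM with NXP800, where the treated replicate 3 was higher than 2 of the control libraries. The log2 fold change was -0.25 ± 0.12 at 6 h (adjusted p = 0.0958, edgeR) and -0.36 ± 0.13 at 24 h (adjusted p = 0.0237). With the replicate number as a block the 6 h decrease passed the test (-0.25, adjusted p = 0.00022). Within numbers the treated level was 0.829, 0.818 and 0.871 of the control level at 6 h and 0.754, 0.835 and 0.761 at 24 h. The 24 h call was lost without replicate 3 of DMSO at 24 h (-0.19, adjusted p = 0.186), and also without replicate 1 (-0.28, adjusted p = 0.107) or replicate 2 (-0.27, adjusted p = 0.117) of NXP800 at 24 h.

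Of 24 further tested genes listed with the HSP90 co-chaperones, some of them partners of co-chaperones, 6 rose and 8 fell at 6 h. Of all tested genes 25% rose and 27.8% fell at that time. At 24 h 3 rose and 9 fell, against 27.5% and 28.6% of all tested genes, and the median of their log2 fold changes was -0.06, then -0.12. *TOMM34*, which shuttles proteins between HSP70 and HSP90 for mitochondrial import, rose by 0.64 and 0.86 (adjusted p = 7.63e-05 and 3.08e-06, edgeR). *FLCN*, the tumour suppressor folliculin, rose by 0.65 at both times (adjusted p = 1.6e-06 and 1.16e-06). *UNC45A*, a myosin chaperone, fell by 0.41 and 0.45 (adjusted p = 9.26e-05 and 2.72e-05) and *FNIP2*, a folliculin partner, by 0.45 and 0.39 (adjusted p = 0.000443 and 0.00177). The phosphatase gene *PPP5C* fell by 0.26 and 0.64 (adjusted p = 0.00233 and 3.28e-07).

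Of 22 heat-inducible genes tested outside the 10 members, 15 fell and 4 rose at 6 h, and 14 fell and 3 rose at 24 h (27.8% and 28.6% of all tested genes fell), with medians of -0.38 and -0.42. The largest decreases were those of the HSP70 genes *HSPA1A* (-2.89, then -1.97, adjusted p = 3.9e-07 and 7.79e-06, edgeR) and *HSPA1B* (-2.50 and -1.49, adjusted p = 1.87e-07 and 1.14e-05), whose near-identical sequences make the split of reads between them uncertain. *ZFAND2A*, which encodes the arsenite-inducible proteasome partner AIRAP, rose by 0.95 and 1.11 (adjusted p = 1.74e-07 and 1.77e-08).

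**Figure D4:**
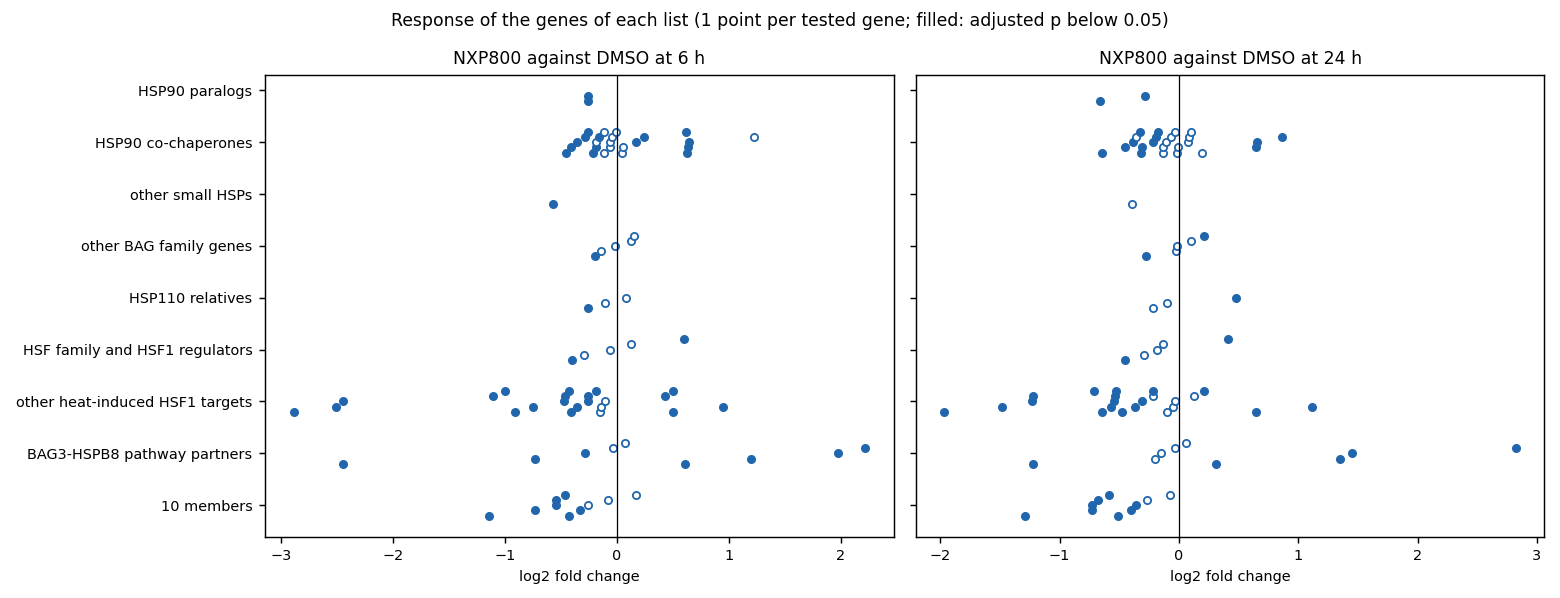
Log2 fold change of NXP800 against DMSO at 6 h (left) and 24 h (right) for every tested gene of each list and for the 10 members, 1 point per gene, offset vertically only to separate points. Filled points passed an adjusted p of 0.05. All filled points of the 10 members lie below 0, while the HSP90 co-chaperones and the BAG3-HSPB8 partners hold filled points on both sides.

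Of the relatives and regulators of HSF1, 5 were tested, and 1 rose and 1 fell at each time. *SIRT1*, the deacetylase that prolongs DNA binding by HSF1, rose by 0.60 at 6 h and by 0.41 later (adjusted p = 1.19e-05 and 0.000424, edgeR). *HSBP1*, whose product binds HSF1 trimers, fell by 0.40 and 0.45 (adjusted p = 0.000127 and 3.3e-05). *HSF2* was at -0.06 and -0.13 and *FBXW7*, a ubiquitin ligase subunit that targets HSF1, at 0.12 and -0.18, none of them called. *HSF4* was at -0.30 and -0.29 with an SE of 0.39 at each time.

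The response at 24 h differed from that at 6 h for 3 of the 10 members by edgeR's test of the difference itself, against 25.8% of all tested genes. The libraries of 6 h and of 24 h also differed in their share of reads on no gene. A difference between times therefore cannot be told apart from one between library sets. The decrease of *HSP90AA1* was deeper at 24 h by 0.55 ± 0.15 on the log2 scale, a difference of -0.55 (95% confidence interval -0.88 to -0.23, adjusted p = 0.0136). That of *HSP90AB1* was deeper too, with a difference of -0.36 ± 0.13 (-0.63 to -0.09, adjusted p = 0.0490). This call was lost in 11 of the 12 fits that left out 1 library, all except the fit without replicate 1 of NXP800 at 24 h. It was also lost with DESeq2 size factors (adjusted p = 0.0520) and with library size only (adjusted p = 0.0662), and it was kept with the replicate block (adjusted p = 0.00374). *BAG3* went the other way, with a difference of 0.42 ± 0.11 (0.19 to 0.64, adjusted p = 0.00848), so that its decrease was shallower at 24 h. With the replicate block *HSPH1* was called as well (-0.25, adjusted p = 0.020). When GC and length offsets were added to the block, *HSPH1* was not called (-0.16, adjusted p = 0.0634) and *AHSA1* was (0.16, adjusted p = 0.0299). For *HSPB1* the difference was -0.04 (95% confidence interval -0.40 to 0.32), for *STIP1* -0.09 (-0.36 to 0.18) and for *AHSA1* 0.14 (-0.15 to 0.43).

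**Figure D5:**
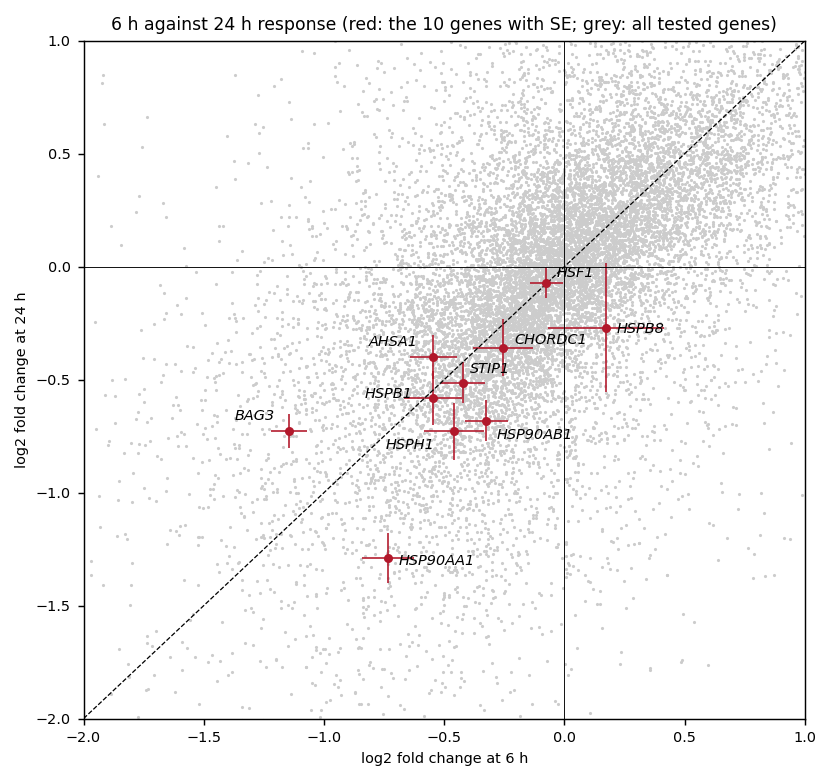
Log2 fold change at 24 h against that at 6 h for the 10 genes (red, with SE bars) over all tested genes (grey), both axes shown from -2 to 1, so that genes beyond are not drawn, with the line of equal response dashed. HSP90AA1 and HSP90AB1 lie below the dashed line and BAG3 above it.

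Over the 12 libraries the members most alike were *AHSA1* and *STIP1*, whose log2 CPM, each centred on its own mean, differed by a root mean square of 0.0890. The least alike were *HSPB8* and *BAG3*, at 0.813. *HSP90AA1* was closer to *HSPH1* (0.250) than to *HSP90AB1* (0.347). Among 11876 other genes whose mean log2 CPM reached 1, those nearest to the mean profile of the 9 members other than *HSF1* were *ERLIN1* (0.0441), *TRIM14* (0.0596), *LNPK* (0.0619), *FARP1* (0.0648) and *NDUFAB1* (0.0740). These values describe 12 libraries that share treatment and time.

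The libraries held between 30810614 and 31947656 gene counts. Reads on no annotated gene made up 6.66 to 8.14% in the libraries of 6 h and 2.73 to 3.67% in those of 24 h, with treated and control libraries overlapping at each time. Of the 9 osteoblast and mesenchymal markers, 5 were over 1 CPM in every group (*RUNX2*, *COL1A1*, *SPARC*, *SPP1* and *VIM*). The rest averaged below 1 CPM in every group, and among them the osteoblast genes *SP7* and *BGLAP* were at or near 0. The summed level of the 9 was 5078 to 5275 CPM in DMSO and 4252 to 4404 with NXP800 at 6 h, and 5944 to 6789 and 3805 to 4652 at 24 h, with *VIM* making up most of it. Of the 5 tested, 1 rose and 2 fell at 6 h, and 1 rose and 4 fell at 24 h. *RUNX2* rose at both times (log2 fold changes 0.71 and 0.36, adjusted p = 4.08e-05 and 0.00879, edgeR). *COL1A1* (-0.50 and -0.76, adjusted p = 0.0133 and 0.000612) and *SPARC* (-0.79 and -2.02, adjusted p = 6.05e-05 and 2.69e-09) fell at both. *SPP1* (-0.01, then -1.29, adjusted p = 0.979 and 0.0013) and *VIM* (-0.19, then -0.48, adjusted p = 0.0952 and 0.000345) were called at 24 h only. Summed leukocyte markers (4 genes) were at 1.62 to 2.87 and 0.154 to 0.338 CPM at 6 h and 1.97 to 3.40 and 0.314 to 0.892 at 24 h, and the 3 endothelial markers reached at most 1.83 CPM. The 4 epithelial markers, mainly *EPCAM*, summed to 5.89 to 5.99 CPM in DMSO and 10.2 to 10.4 with NXP800 at 24 h, and to 5.80 to 6.56 and 6.42 to 7.16 at 6 h. The part of these in the results above was not tested. Pseudogenes of the members held at most 5 counts in a library.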

How the data were processed

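RNA-seq was performed by the authors on poly(A) RNA of MNNG/HOS cells with a strand-specific library kit. Per the labels the reads were processed with fastp 0.20.1, STAR 2.7.5a and HTSeq 0.12.4, on hg38 with RefSeq genes. The deposited values were raw counts per gene, not normalized. The strand and overlap settings of the counter are not given in the sources used here, and reads from overlapping genes can be lost or shared. Rows that name no gene were left out (reads on no gene 2.73 to 8.14%, ambiguous 2.10 to 2.43%, not unique 1.86 to 3.37%).

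Differential expression was assessed with edgeR 4.0.16 in R 4.3.3: filterByExpr, TMM scaling and the quasi-likelihood test in 1 model of the 4 groups, with Benjamini-Hochberg adjustment over 15979 genes. Totals were near-equal between libraries, so that precision was set by counting only for low genes such as *HSPB8*. No replicate pair agreed within sampling noise (chi-square of 7.36 or more per degree of freedom). The replicate numbers do pair the samples: once group means were subtracted, libraries of the same number within a time point correlated across genes with r from 0.159 to 0.329, against at most 0.0580 otherwise. The numbers in the labels are the only source of the pairing.

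The members and lists were chosen with earlier results of these data known, so they are no independent evidence. Named were all members, every tested gene of lists of up to 7 genes, the 2 largest rises and falls among called genes of longer lists at each time, and the 5 genes nearest to the mean profile of the members without *HSF1*. Cell type markers were read as summed levels. A gene that the rule names and a marker are not reported here. Positions and promoters are from RefSeq (GRCh38.p14), lengths, GC content and exon overlaps from GENCODE. GC content and length were known for 14631 tested genes (91.6%). Alternatives were DESeq2 1.42.0 (size factors and Wald test), library size only, other filters, the libraries of 1 time point, the replicate block with and without GC and length offsets, each library left out, pseudogene counts added, and an adjusted p below 0.01. The procedures were tested on simulated data with 200 genes changed 2-fold. At 6 h the 4-group model recovered 181 of them, and 160 were recovered for the difference of responses. Smaller changes, such as those of most members, are not covered by these values.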

Additional observations from a re-analysis of the deposited data

Results flagged for a closer look

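A direct test of response at 24 h minus response at 6 h marked 3 of the 10 members, near the 25.8% of all tested genes that it marked. For *HSP90AA1* the difference was -0.55 on the log2 scale (24 h minus 6 h, adjusted p = 0.0136, edgeR), and it passed in each of the 12 fits with 1 library left out, with values from -0.67 to -0.44. For *HSP90AB1* it was -0.36 (adjusted p = 0.0490, edgeR), with values from -0.47 to -0.27 in those fits and adjusted p from 0.00376 to 0.136. Its call was lost in 11 of those 12 fits. For *BAG3* it was 0.42 (adjusted p = 0.00848), from 0.35 to 0.49 with 1 library left out and passing in each. *HSPA8*, the HSP70 gene that BAG3 partners, had a difference of 1.22 (adjusted p = 7.9e-05). Within replicate numbers the treated level of *BAG3* was 0.448, 0.423 and 0.484 of the control level at 6 h and 0.646, 0.572 and 0.594 at 24 h, higher at 24 h for each number.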

How the results depend on the processing

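The 7 decreases at 6 h, and at 24 h the same 7 genes' decreases, kept their direction and their call under every alternative run, with *BAG3* between -1.21 and -1.03 at 6 h and *HSP90AA1* between -1.40 and -1.16 at 24 h. The 24 h call of *CHORDC1* was also lost with library size only (-0.26) and within the libraries of 24 h alone (-0.34). Its 6 h decrease, not called in the main fit, passed edgeR's test without a filter on low counts (-0.25, adjusted p = 0.00582). It also passed within the libraries of 6 h alone (-0.22, adjusted p = 0.0138) and without replicate 3 of DMSO at 24 h (-0.25, adjusted p = 0.0417). The block with GC and length offsets gave -0.45 (adjusted p = 4.17e-08). The members that differed between times numbered 1 in place of 3 at an adjusted p below 0.01. All genes that differed numbered 4129, and 6284 with the replicate block, 6589 with the block and GC and length offsets, and 2236 at an adjusted p below 0.01. List counts moved for the other BAG genes at 6 h (1, but 3 with library size only or the replicate block), the HSP110 relatives (1 at 6 h, 0 with library size only or DESeq2, and 1 at 24 h, 2 with the block) and the other small heat shock genes at 24 h (0, but 1 with the block). The replicate block changed no other call of a member than those given above.

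Signs that turned were all of values that were not called. With the replicate block and GC and length offsets *HSF1* was at 0.0922 at 6 h and 0.0628 at 24 h, and its difference between times at -0.0294. Library size only gave 0.0179 for *HSF1* at 24 h and 0.0297 for the *HSPB1* difference. The *HSF1* difference was -0.00111 with DESeq2 size factors and -0.0028 with DESeq2, and the *CHORDC1* difference 0.0329 with block and offsets. With 1 library left out, *HSF1* ranged from -0.136 to 0.0252 at 24 h, *HSPB8* from -0.00351 to 0.38 at 6 h, and the differences from -0.0603 to 0.0702 for *HSF1*, -0.142 to 0.0797 for *HSPB1*, -0.17 to 0.00531 for *STIP1* and -0.252 to 0.0697 for *CHORDC1*. Depth limits *HSPB8*, at 14 to 48 counts, and the other small heat shock genes.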
